A study of Mus musculus with 10 samples.

Results

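The genes described here are the cadherins and the non-clustered protocadherins of the mouse: every row of the count files whose symbol is Cdh or Pcdh followed by a number, with or without a closing letter for Pcdh. The rule found 35 of 32531 gene symbols, 23 cadherins and 12 protocadherins, and it leaves out 59 rows of the clustered protocadherins (Pcdha, Pcdhb and Pcdhg). Of the 35 members, 25 reached a mean of 1 CPM over the 10 libraries, 14 cadherins and 11 protocadherins. CPM are gene reads relative to the total of the library, on the usual CPM scale. Unless stated otherwise, that total was scaled by trimmed mean of M values (TMM) over the 10 libraries.

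All libraries came from the whole striatum of adult mice of the line Drd2-TRAP CP101 (Drd2-EGFP/Rpl10a), in which a transgene with Drd2 regulatory sequence puts EGFP on ribosomal protein L10a. Translating ribosome affinity purification (TRAP) pulls such ribosomes down with antibodies to EGFP, and the RNA they carry is called the IP here. There were 3 IP libraries after intravenous saline self-administration (numbers 1, 2 and 4), 5 IP libraries after short-access cocaine self-administration (numbers 1 to 5), 1 library of the input RNA after saline and 1 library of unbound RNA after cocaine. The labels name medium spiny neurons as the cell type, but Drd2 is also used by cholinergic interneurons, and input and unbound RNA come from all striatal cells. Sex and the number of animals behind a library are not given in the labels, so spread between libraries may be technical in part. Input and unbound RNA were read in another lane (lane 1) than every IP library (lanes 4, 6 and 7), so that lane and RNA fraction cannot be told apart.

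Cadherins are calcium-dependent adhesion proteins whose extracellular repeats bind cadherins on a neighbouring cell. Classical cadherins (types I and II) hold p120 catenin and β-catenin with their tails and reach actin through α-catenin, and their combinations help neurons sort into nuclei and choose synaptic partners. Non-clustered protocadherins have more extracellular repeats, adhere weakly and signal through other tails; the δ1 tails bind protein phosphatase 1 and the δ2 tails recruit actin regulators of the WAVE complex.

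Gene reads came to 22975667 to 31631137 per IP library, 18408782 for the input and 20882691 for unbound RNA. Before TMM scaling, 3 reads equal 0.0948 to 0.131 CPM in an IP library. Marker genes of indirect-pathway neurons, the medium spiny neurons that carry D2 receptors, summed to 7369 to 13380 CPM in the IP libraries against 1596 in the input and 1221 in the unbound RNA. The sums of astrocyte markers (47.8 to 150 CPM, against 1775 and 1664) and oligodendrocyte markers (196 to 428 CPM, against 4550 and 4987) were low in the IP libraries, though no marker of either list was at 0. The IP holds RNA pulled down with tagged ribosomes, so its marker sums do not count the cells of a type. In input and unbound RNA, which are bulk RNA, a lower value can mean fewer cells of a type or less RNA per cell. These cannot be told apart.

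A few genes held the highest levels of the family on tagged ribosomes. Levels of different genes are compared only per length, as TMM-scaled CPM per kilobase (kb) of annotated exon. By the mean of the 8 IP libraries the order was Pcdh17 (18.1 ± 1.99 CPM per kb, SD), Cdh8 (14.7 ± 3.14), Pcdh10 (11.0 ± 2.12), Cdh9 (9.36 ± 1.70), Pcdh9 (8.21 ± 1.08) and Cdh13 (8.20 ± 1.29). The ranges of neighbours in this order overlapped: Pcdh17 lay between 14.6 and 19.99 CPM per kb, Cdh8 between 9.36 and 18.2, and Pcdh10 between 8.07 and 14.6. Pcdh17 is a δ2 protocadherin known for its part in corticobasal ganglia synapses, and Pcdh10 is a δ2 protocadherin needed for striatal axon growth. Cdh8 and Cdh9 are type II cadherins with roles in the matching of synaptic partners. N-cadherin (Cdh2), the main classical cadherin of synapses, followed in rank 11 with 3.44 ± 0.63 CPM per kb.

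In the input the order differed. Pcdh9, a δ1 protocadherin, led with 17.4 CPM per kb, ahead of Pcdh17 with 15.5, and it took 15.3% of the summed per-length level of all members against 7.05% in the mean of the saline IP libraries. Cdh8 took 6.26% of that sum in the input and 12.6% in the saline IP libraries. The summed level of all 35 members was 98.0, 114.7 and 113.3 CPM per kb in saline IP 1, 2 and 4, 85.1 to 136 in the cocaine IP libraries, 113.6 for input and 100.07 for unbound RNA. The single input and unbound values lay inside the range of the IP libraries.

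**Figure D1:**
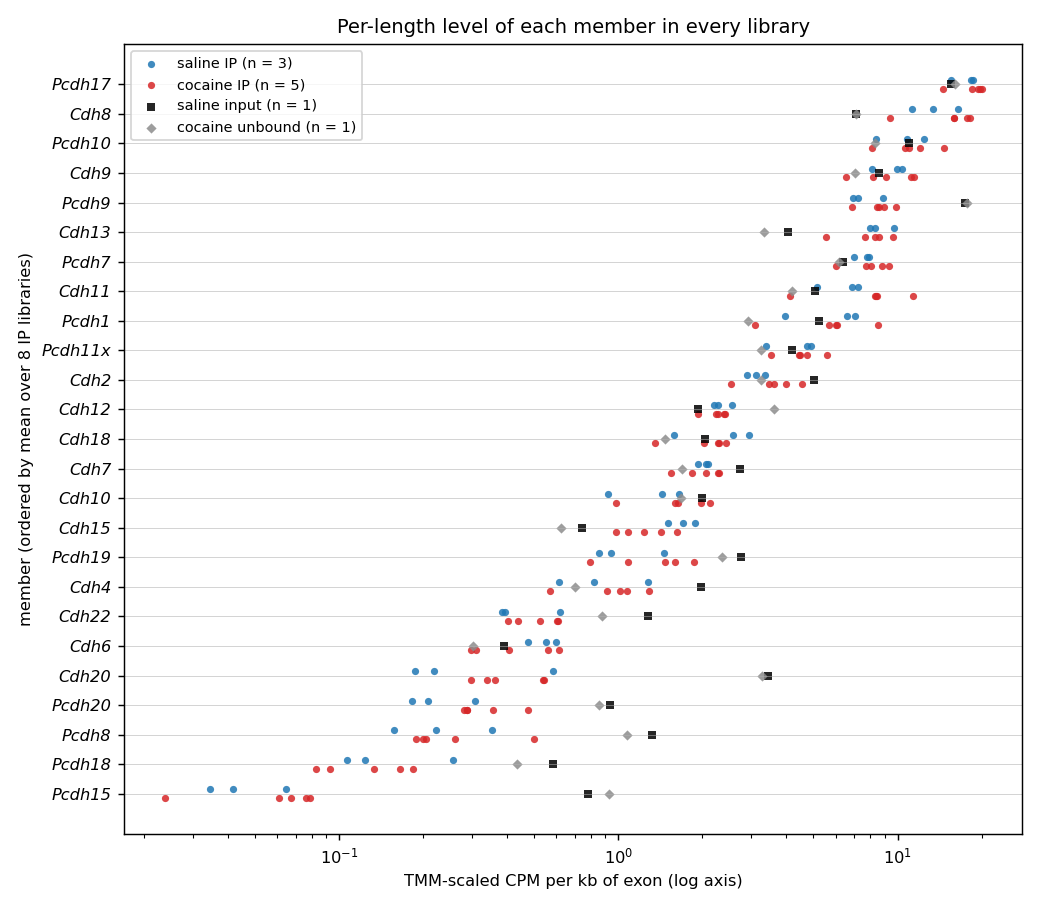
Level of the 25 members with a mean of at least 1 CPM in every library, in TMM-scaled CPM per kb of exon on a log axis, with members ordered by their mean over the 8 IP libraries. Each point is 1 library, and Pcdh17 and Cdh8 head the order while Pcdh15 and Cdh20 stand far to the left of their input and unbound points.

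The start regions of the 2 members with the highest per-length level and of the 2 called lower in both IP comparisons are shown for context, as the 100 bases before the RefSeq transcript start on GRCm38.p6. Capitals mark matches on either strand to the CCAAT box, to the TATA box written as TATAAA, to the GC box written as GGGCGG and to the cyclic AMP response core TGACG. Cdh8 is read from the minus strand of chr8:99416472-99416571 and Pcdh17 from the plus strand of chr14:84443463-84443562. Pcdh15 is read from the plus strand of chr10:73821767-73821866, a start inside the long gene span, and Cdh20 from the plus strand of chr1:104768420-104768519.
Cdh8: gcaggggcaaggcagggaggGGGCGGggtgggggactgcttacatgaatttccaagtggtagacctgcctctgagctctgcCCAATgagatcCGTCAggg
Pcdh17: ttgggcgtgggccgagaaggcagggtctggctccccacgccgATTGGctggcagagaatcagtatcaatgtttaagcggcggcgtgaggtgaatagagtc
Pcdh15: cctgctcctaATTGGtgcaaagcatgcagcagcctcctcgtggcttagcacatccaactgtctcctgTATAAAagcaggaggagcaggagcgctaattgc
Cdh20: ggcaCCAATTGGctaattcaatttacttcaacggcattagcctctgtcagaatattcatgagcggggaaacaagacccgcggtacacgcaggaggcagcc

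The RefSeq table held 25 promoters for 22 member genes. In the 250 bases before the start, CCAAT on either strand was found in 14 of the 22 genes (63.6%), against 33.8% of 32851 mouse promoters. GGGCGG was found in 9 (40.9%, against 32.7%), TGACG in 3 (13.6%, against 17.8%) and TATAAA in 2 (9.09%, against 12.4%), Pcdh15 and Pcdh8. In Cdh20 the CCAAT match overlaps its own reverse complement. The shares of members count genes, while the shares over all count promoters. A gene with several listed starts had more chances of a match, and a match is a description of letters only. Member promoters held a median of 58.4% G and C bases and 10 CpG, against 52.4% and 6 over all promoters. The part of this base content in the shares was not tested.

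Set against the input, none of the 26 members that could be compared was at least 2-fold higher in all 3 saline IP libraries, and 5 were at least 2-fold lower in all 3: Pcdh15, Cdh20, Cdh19, Pcdh8 and Pcdh20. Across all 12902 genes compared, 1.64% were called higher and 11.6% lower by the same rule. Set against the unbound RNA, 0 of 24 members were higher and 2 were lower in all 5 cocaine IP libraries, Pcdh15 and Cdh20, where 3.78% and 9.74% of 12643 genes were called. A gene was compared where its mean over the libraries concerned was at least 1 CPM, so a gene with a mean under 1 CPM in the IP libraries could enter through its reference library alone. Against the input Cdh19 and Pcdh18 did so and had to be lower, and the count of 5 holds Cdh19. Against the unbound RNA no member did. With single reference libraries there is no test. Ratios are log2 ratios of TMM-scaled CPM plus 1, which understates the change of low genes. The median ratio over members was −0.22 against the input (0.13 over all genes) and 0.29 against the unbound RNA (0.17 over all genes), and scaling by library size alone moves the medians of all genes to −0.095 and −0.011. The member medians shifted when single libraries were left out: the first was −0.12 without saline IP 1, and the second was 0.17 without cocaine IP 2. In the latter setting 25 members passed the filter instead of 24, so the set of members changed as well.

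Pcdh15, a large protocadherin of the hair cell tip link that is also known from oligodendrocyte precursors, had the lowest ratio of all members compared in both comparisons. It stood at 0.824, 1.54 and 0.993 CPM in saline IP 1, 2 and 4 and at 1.87, 0.566, 1.45, 1.82 and 1.60 CPM in cocaine IP 1 to 5. The input held 18.5 CPM (95% Poisson interval 16.7 to 20.5) and the unbound RNA 22.1 CPM (20.2 to 24.0), far above every IP library. The log2 ratio was −3.20 ± 0.24 (SD, n = 3) to the input and −3.25 ± 0.36 (SD, n = 5) to the unbound RNA. These equal a 9.21-fold and a 9.52-fold lower value of CPM plus 1. The CPM values themselves lay further apart, with means of 1.12 CPM in the saline IP and 1.46 CPM in the cocaine IP libraries. Beside it, the markers of oligodendrocyte precursors summed to 2.19 to 4.99 CPM in the IP libraries against 47.2 in the input and 45.8 in the unbound RNA. None of the 5 precursor markers was at 0 in every IP library. Of the 4 compared with the input 3 entered through that library alone, and of the 3 compared with the unbound RNA 2 did, so their calls are not counted here. Their part in the Pcdh15 result was not tested. The Poisson intervals cover counting error only.

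Among type II cadherins, Cdh20 and Cdh19 were low in the IP. Cdh20 gave 2.35, 0.751 and 0.878 CPM in saline IP 1, 2 and 4, and 2.15, 1.36, 1.19, 1.45 and 2.18 CPM in cocaine IP 1 to 5. Its input value was 13.8 CPM (12.2 to 15.5) and its unbound value 13.2 CPM (11.7 to 14.7), so that no IP library came near either. The log2 ratios were −2.72 ± 0.52 (SD, n = 3) and −2.42 ± 0.25 (SD, n = 5). Saline IP 1 and cocaine IP 1 and 5 held the highest Cdh20 values among the IP libraries, and saline IP 1 and cocaine IP 1 also held the highest sums of oligodendrocyte markers, 428 and 407 CPM against 196 to 325 in the other 6. The part of other cells in these values was not tested. Cdh19, a cadherin known from Schwann cell precursors, rested on 1 to 14 reads per IP library.
It gave 0.444, 0.0358 and 0.153 CPM in the saline IP libraries and 0.281, 0.0377, 0.396, 0.404 and 0.223 CPM in the cocaine IP libraries, against 3.58 CPM (2.81 to 4.49) in the input and 2.59 CPM (1.98 to 3.33) in the unbound RNA. Its log2 ratio to the input was −1.92 ± 0.25 (SD, n = 3), and it missed the filter of a mean of 1 CPM in the comparison with unbound RNA. Cdh20, Cdh19 and Cdh7 lie on the same chromosome, at chr1:104768529-104995481, chr1:110888326-110977584 and chr1:109982431-110140157 (GRCm38). Cdh7, named here after its values were seen, did not share the gap: its IP libraries ranged from 15.6 to 23.0 CPM, beside 27.4 CPM for input and 17.0 CPM for unbound RNA.

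Cdh8 (chr8:99024471-99416471, minus strand) was the most abundant type II cadherin on tagged ribosomes. It gave 86.8, 127 and 104 CPM in saline IP 1, 2 and 4, and 72.5, 141, 137, 123 and 123 CPM in cocaine IP 1 to 5. The input held 55.0 CPM (51.9 to 58.3) and the unbound RNA 54.9 CPM (52.0 to 58.0), so that every IP library lay above both. The log2 ratio was 0.94 ± 0.25 (SD, n = 3) to the input and 1.07 ± 0.38 (SD, n = 5) to the unbound RNA. It missed the 2-fold call since 2 of the 3 saline libraries and 1 of the 5 cocaine libraries stayed within 2-fold, and without cocaine IP 1 it was at least 2-fold higher than the unbound RNA in the other 4 libraries.

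Cdh9 differed little between the kinds of RNA. Its values were 28.7, 35.1 and 36.8 CPM in the saline IP libraries, 23.2, 28.9, 39.6, 32.1 and 40.6 CPM in the cocaine IP libraries, beside 30.4 CPM for input and 24.9 CPM for unbound RNA. The log2 ratios were 0.15 ± 0.17 and 0.36 ± 0.31 (SD, n = 3 and 5), and the first turns to −0.073 when libraries are scaled by size alone. Cdh11, a type II cadherin first known from bone and also made in the brain, gave 46.0, 64.4 and 61.1 CPM in the saline IP libraries and 36.6, 74.3, 101, 75.3 and 74.1 CPM in the cocaine IP libraries. Its input and unbound values were 45.0 CPM (42.2 to 48.0) and 37.2 CPM (34.7 to 39.7), and the log2 ratios were 0.35 ± 0.24 and 0.88 ± 0.52. All of its IP libraries but cocaine IP 1 lay above both reference libraries.

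Over the whole class, 4 of 11 type II cadherins had a ratio above 0 in every saline library and 5 had one below 0. Over all members, 8 of 26 were above 0 and 13 below 0 in every saline library, where 44.2% and 32.8% of all genes were. Against the unbound RNA, 7 of 24 members were above 0 and 8 below 0 in every cocaine library, where 44.3% and 29.9% of all genes were. Cdh12, singled out after its values were seen, went different ways in the 2 comparisons. It was nearly even across the IP libraries, at 12.2 to 16.1 CPM, while the input held 12.1 CPM (10.7 to 13.7) and the unbound RNA 22.8 CPM (20.9 to 24.8). Its log2 ratio was 0.28 ± 0.12 to the input and −0.65 ± 0.11 to the unbound RNA. Its IP libraries of both groups overlapped, while the intervals of the single reference libraries, which differ in treatment as well as in fraction, did not.

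Cdh13 (T-cadherin, chr8:118283733-119324921) is the unusual cadherin that is held by a lipid anchor and has no tail for catenins. It had the highest ratio of all members in both comparisons. Its values were 109, 93.3 and 89.2 CPM in saline IP 1, 2 and 4 and 108, 96.5, 93.1, 85.7 and 62.5 CPM in cocaine IP 1 to 5, against 45.6 CPM (42.7 to 48.6) in the input and 37.3 CPM (34.8 to 39.9) in the unbound RNA. Every IP library lay above both reference libraries, and cocaine IP 5 was the lowest. The log2 ratio to the input was 1.09 ± 0.16 (0.98 to 1.28, n = 3) and that to the unbound RNA 1.22 ± 0.31 (0.72 to 1.53, n = 5). A single library kept it from the 2-fold call in the second comparison: without cocaine IP 5 it was called higher, and it was called higher against the input without saline IP 2 or without saline IP 4.

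The type I cadherins took different directions. Cdh15 (M-cadherin), best known from skeletal muscle, was low but higher on ribosomes: 5.55, 4.90 and 6.11 CPM in the saline IP libraries and 3.18, 4.64, 5.29, 3.51 and 4.01 CPM in the cocaine IP libraries. The input held 2.42 CPM (1.80 to 3.19) and the unbound RNA 2.03 CPM (1.49 to 2.70). Its log2 ratios were 0.95 ± 0.14 (SD, n = 3) and 0.75 ± 0.23 (SD, n = 5), with every IP library above its reference. The gene model shares its strand with an overlapping model, Gm20388, so reads of the 2 could not be separated by strand.

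N-cadherin (Cdh2) was lower on ribosomes than in the input and near even with the unbound RNA. It gave 23.2, 25.1 and 27.0 CPM in the saline IP libraries, all below the input at 40.6 CPM (37.9 to 43.5). The cocaine IP libraries gave 20.5, 32.2, 36.7, 28.0 and 29.2 CPM, around the unbound value of 26.2 CPM (24.1 to 28.3). The log2 ratios were −0.65 ± 0.10 (SD, n = 3) and 0.14 ± 0.29 (SD, n = 5), and the second turns to −0.047 with scaling by library size alone. R-cadherin (Cdh4), named after its values were seen, showed the same split between references, at −1.05 ± 0.46 and 0.37 ± 0.36, with 14.3 CPM in the input and 5.09 CPM in the unbound RNA.

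Among the δ1 protocadherins, Pcdh9 (chr14:93013410-93890679, minus strand) stood below both references. It gave 47.0, 49.0 and 60.0 CPM in the saline IP libraries and 46.6, 57.3, 66.8, 60.6 and 58.3 CPM in the cocaine IP libraries. The input held 118 CPM (113 to 123) and the unbound RNA 120.1 CPM (116 to 125), above every IP library. The log2 ratios were −1.15 ± 0.18 (SD, n = 3) and −1.04 ± 0.17 (SD, n = 5), and 1 or more libraries of each group stayed within 2-fold. The other 3 members of the class (Pcdh1, Pcdh7 and Pcdh11x) had mean ratios of 0.06 to 0.27 to the input and 0.36 to 0.92 to the unbound RNA.

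The δ2 protocadherins held ranks 1 and 3 of the per-length order (Pcdh17 and Pcdh10) and some low members. Pcdh17 (chr14:84443563-84539002) gave 242, 237 and 202 CPM in the saline IP libraries and 189, 257, 252, 259.8 and 241 CPM in the cocaine IP libraries, beside 202 CPM (196 to 208) in the input and 209 CPM (203 to 215) in the unbound RNA. Its log2 ratios were 0.19 ± 0.15 and 0.19 ± 0.18, and both turn slightly negative with scaling by library size alone (−0.042 and −0.0012). Pcdh10 gave 133, 172 and 197 CPM in the saline IP libraries, around its input value of 174. It gave 128, 175, 232, 191 and 169 CPM in the cocaine IP libraries, beside 132 in the unbound RNA, with log2 ratios of −0.05 ± 0.27 and 0.41 ± 0.30. By per-length level both were also among the highest members in the input.

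Pcdh8 (arcadlin), an activity-induced δ2 protocadherin known to take N-cadherin off the synaptic membrane, was low in the IP. It gave 1.01, 0.716 and 1.60 CPM in the saline IP libraries and 1.19, 0.905, 0.859, 0.928 and 2.27 CPM in the cocaine IP libraries. The input held 5.998 CPM (4.99 to 7.15) and the unbound RNA 4.88 CPM (4.02 to 5.86). The log2 ratio was −1.73 ± 0.31 to the input, and −1.43 ± 0.34 to the unbound RNA, where cocaine IP 5 stayed within 2-fold. Pcdh20, outside the δ groups, gave 1.14, 1.002 and 1.68 CPM and then 2.62, 1.55, 1.59, 1.57 and 1.96 CPM in the same order. Its input and unbound values were 5.13 CPM (4.20 to 6.20) and 4.70 CPM (3.86 to 5.67), and its log2 ratios −1.43 ± 0.22 and −1.004 ± 0.22. The other δ2 members, Pcdh18 and Pcdh19 (mutated in an X-linked epilepsy), had mean ratios of −1.16 and −1.28 to the input.

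**Figure D2:**
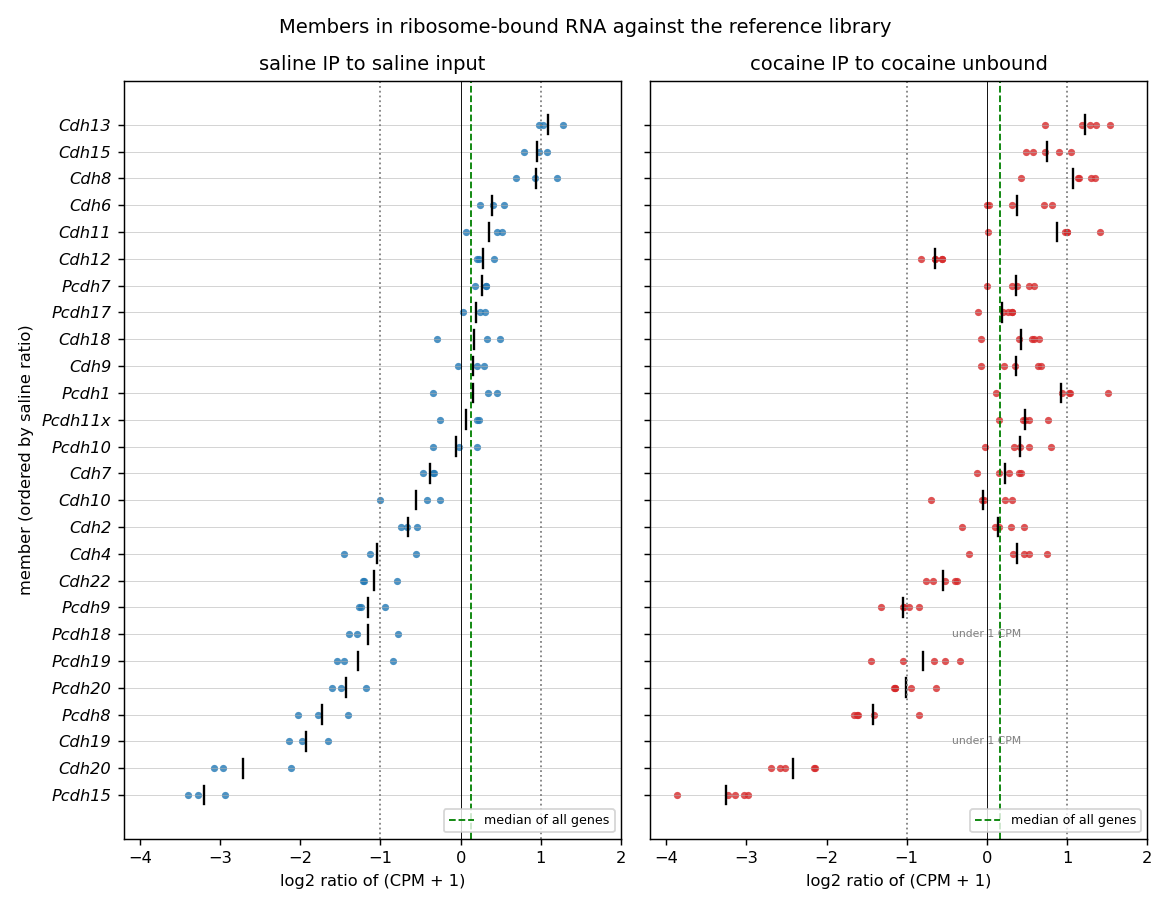
Log2 ratio of CPM plus 1 for each member, saline IP to input on the left (n = 3) and cocaine IP to unbound RNA on the right (n = 5). Points are IP libraries, short bars are means, dotted lines mark 2-fold and the dashed line is the median of all genes. Pcdh15 and Cdh20 lie left of the lower 2-fold line in every library, and Cdh13 lies furthest right.

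The input and the unbound library, neither of which was replicated, differed by more than counting error for 11 of the 25 members with a mean of at least 1 CPM. Of these, 10 were higher in the input and 1, Cdh12, was higher in the unbound RNA, where 27.3% and 20.2% of 12756 genes at that level were. The ratio of input to unbound RNA was 2.81 for Cdh4, 1.79 for Pcdh1, 1.61 for Cdh7 and 1.55 for Cdh2, and 0.533 for Cdh12. The input came from saline and the unbound RNA from cocaine, so fraction and treatment cannot be told apart.

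Partners of the cadherins were read as lists, beside the shares of all genes called higher (1.64% to the input and 3.78% to the unbound RNA) and lower (11.6% and 9.74%). Of the catenins and other tail binders, 11 were compared with the input and 10 with the unbound RNA: none was called higher, and 1, the actin linker vinculin (Vcl, −1.30 ± 0.23), was called lower, against the input. Of 13 genes for processing of cadherins and for tail partners of protocadherins, 1 was higher in both comparisons and 1 was lower in both. The higher gene was Ppp1ca, the catalytic subunit of protein phosphatase 1 (log2 ratios 1.61 ± 0.16 and 1.89 ± 0.13), and the lower was the scaffold Iqgap1 (−1.32 ± 0.10 and −1.47 ± 0.17). Of the other cadherin superfamily genes, 4 of 12 and 2 of 11 were called lower and none higher. Clstn2, a calsyntenin of synapses (−1.88 ± 0.41 and −1.70 ± 0.20), and the giant cadherin Fat4 (−2.76 ± 0.31 and −2.09 ± 0.23) were lower in both. Fat4 had a mean of 0.532 CPM in the IP libraries and entered through the reference libraries alone, so it had to be lower. Its relatives Fat1 (−2.16 ± 0.32) and Fat3 (−1.19 ± 0.16) were called lower against the input alone. Among the nectins, the immunoglobulin partners of cadherin junctions, Pvrl1 and Pvrl3 were called lower in both comparisons, with Pvrl1 at −1.82 ± 0.46 and −1.81 ± 0.19 and Pvrl3 at −2.02 ± 0.55 and −2.45 ± 0.39. Vcl, Fat1 and Fat3 were named after their values were seen. No gene of these 4 lists was called for cocaine against saline.

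In all, 10 members stayed under a mean of 1 CPM: Cdh1, Cdh3, Cdh5, Cdh16, Cdh17, Cdh19, Cdh23, Cdh24, Cdh26 and Pcdh12. Apart from Cdh19, the nearest to the threshold with 0.814 CPM, these 9 had 7 reads or fewer in every IP library. They include cadherins best known outside neurons, such as E-cadherin (Cdh1) of epithelia, VE-cadherin (Cdh5) of endothelium, kidney Cdh16, for which no read was counted in any library, and intestinal Cdh17. Cdh5 gave 0, 0.0358 and 0 CPM in saline IP 1, 2 and 4, beside 0.387 CPM (0.167 to 0.762) in the input. It gave 0.0624, 0.264, 0.0330, 0 and 0.0892 CPM in cocaine IP 1 to 5, beside 0.302 CPM (0.121 to 0.622) in the unbound RNA. All but cocaine IP 2 lay below the interval of their reference, but Cdh5 was under the filter and was not compared. Of the 35 members, 20 overlap another gene model: 19 overlap one on the opposite strand and 4 one on the same strand (Cdh8, Cdh12, Cdh15 and Pcdh15). The strand setting of the counting is not given in the sources used here, so the values of the 20 may hold reads of the neighbour.

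Whether cocaine self-administration moved these genes on tagged ribosomes is the question the treatment groups address. No member passed the test. In edgeR's quasi-likelihood test on the 8 IP libraries, 0 of 26 members tested and 0% of 13800 genes were called at an adjusted p of 0.05 (smallest adjusted p = 0.9998). At an unadjusted p of 0.05 the count was 0 of 26 members and 2.14% of all genes. DESeq2 and limma-voom also called 0 genes, with 363 and 429 genes at an unadjusted p of 0.05. The fitted log2 fold changes of members ran from −0.41 to 0.56 with SEs of 0.12 to 0.76. They were positive for 18 members and negative for 8, with a median of 0.11 against 0.0063 over all genes. Of all 13800 genes, 7121 were positive and 6679 negative. The member median was 0.031 without saline IP 1, 0.060 without cocaine IP 3 and 0.075 without cocaine IP 5. It was 0.17 without cocaine IP 1 and 0.14 without saline IP 4. For 20 of the 26 the 95% interval stayed within 1 log2 unit of 0, and the groups overlapped for all 26, where 2.34% of all genes did not overlap.

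The 4 members with the smallest unadjusted p were Cdh15, Pcdh20, Cdh2 and Cdh11, whose values per library are given above. Cdh15 averaged 5.35 ± 0.62 CPM after saline (SD, n = 3) and 4.02 ± 0.82 CPM after cocaine (SD, n = 5), scaled over the 8 IP libraries, with a log2 fold change of −0.41 (SE 0.20, 95% interval −0.85 to 0.031) and an adjusted p of 0.9998 by edgeR. Cocaine IP 3, at 5.29 CPM, reached into the saline range. Pcdh20 averaged 1.23 ± 0.35 and 1.82 ± 0.48 CPM, a log2 fold change of 0.56 (SE 0.31, interval −0.11 to 1.24). Cdh2 averaged 24.3 ± 1.63 and 28.6 ± 5.63 CPM, a change of 0.23 (SE 0.16), and Cdh11 averaged 55.3 ± 8.81 and 70.4 ± 22.2 CPM, a change of 0.35 (SE 0.25). For Cdh2 and Cdh11 the spread among cocaine libraries was wider than the gap between the groups' means.

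The direction of some of these small differences depended on which libraries were compared. Saline IP 1 and 2 were read in lane 7, cocaine IP 3 to 5 in lane 4, and saline IP 4 with cocaine IP 1 and 2 in lane 6, so only lane 6 holds both treatments. With lane as a covariate, which sets saline IP 4 alone against cocaine IP 1 and 2, the median over members was −0.13. In that fit 8 of 26 were positive, with Cdh11 at −0.12 and Cdh2 at −0.014. Cdh15 (−0.63) and Pcdh20 (0.35) kept their sign. Within the libraries that share a number (1, 2 and 4), 4 members were lower after cocaine in all 3 pairs, Cdh15, Cdh18, Cdh9 and Pcdh1, where 13.9% of all genes were. Pcdh9 was higher in all 3, where 13.8% of all genes were. With the number as a replicate block, 0 genes passed adjustment and 4 of 25 members had an unadjusted p under 0.05, where 6.65% of 13580 genes did (Cdh15 at −0.55, Cdh6 at −0.52, Cdh9 at −0.26 and Pcdh1 at −0.23), with a smallest adjusted p among members of 0.738 by edgeR. Without cocaine IP 1, 4 members, Cdh2, Cdh8, Cdh10 and Cdh11, had an unadjusted p under 0.05, where 4.4% of 13583 genes did, and 0 genes passed adjustment.

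**Figure D3:**
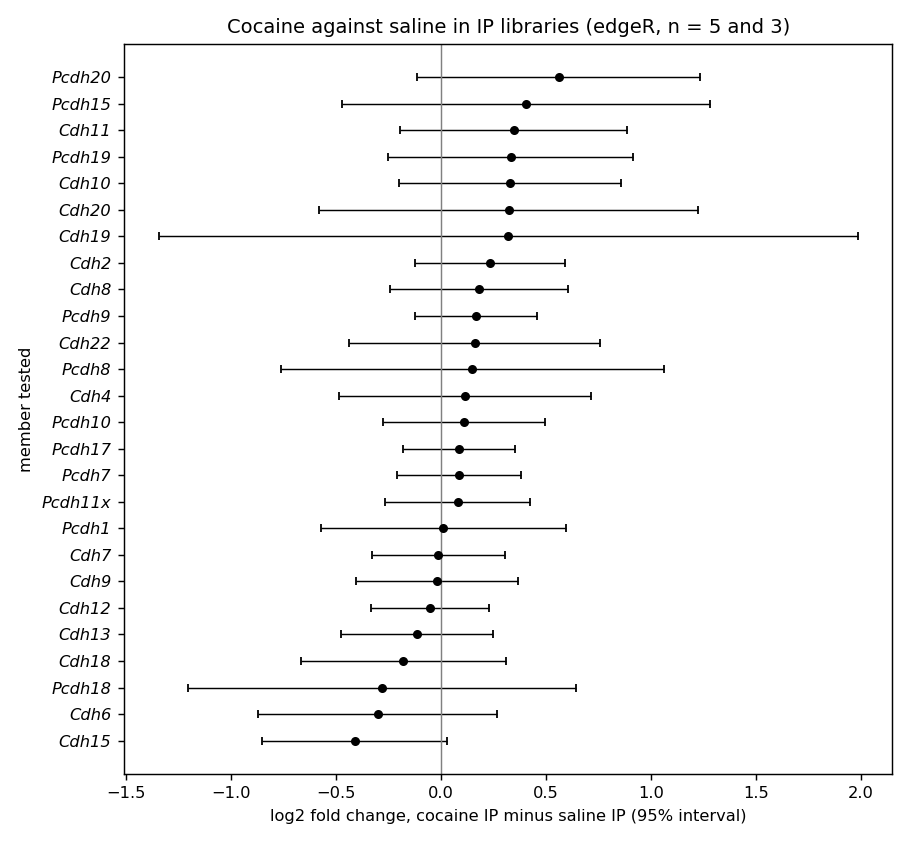
Log2 fold change of cocaine IP (n = 5) over saline IP (n = 3) for the 26 members tested, with points for edgeR's estimate and bars for the 95% interval. Every interval includes 0, with estimates from −0.41 (Cdh15) to 0.56 (Pcdh20).

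Variation between IP libraries was shared by many members. Of the 17 members with a mean of at least 5 CPM, 12 had their lowest value in cocaine IP 1 and 3 in saline IP 1, and 9 had their highest in cocaine IP 3. Over all 9618 genes at that level, cocaine IP 1 was lowest for 14.9%, saline IP 1 for 15.8%, and cocaine IP 3 highest for 12.7%. Among the 17 members the steadiest was Cdh12, with a coefficient of variation of 7.86% over the 8 IP libraries, and the least steady was Pcdh19 with 30.8%. Cdh11 differed 2.70-fold between its lowest and highest IP library.

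Over all 26 members tested, the median deviation from the mean log2 level was −0.30 in cocaine IP 1, −0.22 in saline IP 1 and 0.27 in cocaine IP 3, with 20, 18 and 2 members below their mean. Genes with as many exon bases as the median member or more (at least 7903 bases, 2521 genes) deviated by a median of 0.036 in cocaine IP 1, 0.036 in saline IP 1 and 0.056 in cocaine IP 3. Beside this, the indirect-pathway markers summed to 8477 CPM in saline IP 1 and 7369 in cocaine IP 1, against 10177 to 13380 in the other 6 IP libraries. Penk, with a mean of 7281 CPM over the IP libraries, is the largest part of these sums. Markers shared by all medium spiny neurons summed to 13952 CPM in saline IP 1 and 14104 in cocaine IP 1. These sums lay within the 12986 to 15914 CPM of the other 6. Markers of cholinergic interneurons summed to 29.9 and 40.4 CPM in the number 1 libraries against 16.6 to 23.9 in the others. Their sum was 51.6 CPM in the input and 35.6 CPM in the unbound RNA. The median log2 ratio over those compared was −0.93 to the input and −0.40 to the unbound RNA. The part of these differences in the member values was not tested. Without both number 1 libraries, a setting chosen after seeing the data, the median over members for cocaine against saline was 0.082, and 0 genes passed adjustment.

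**Figure D4:**
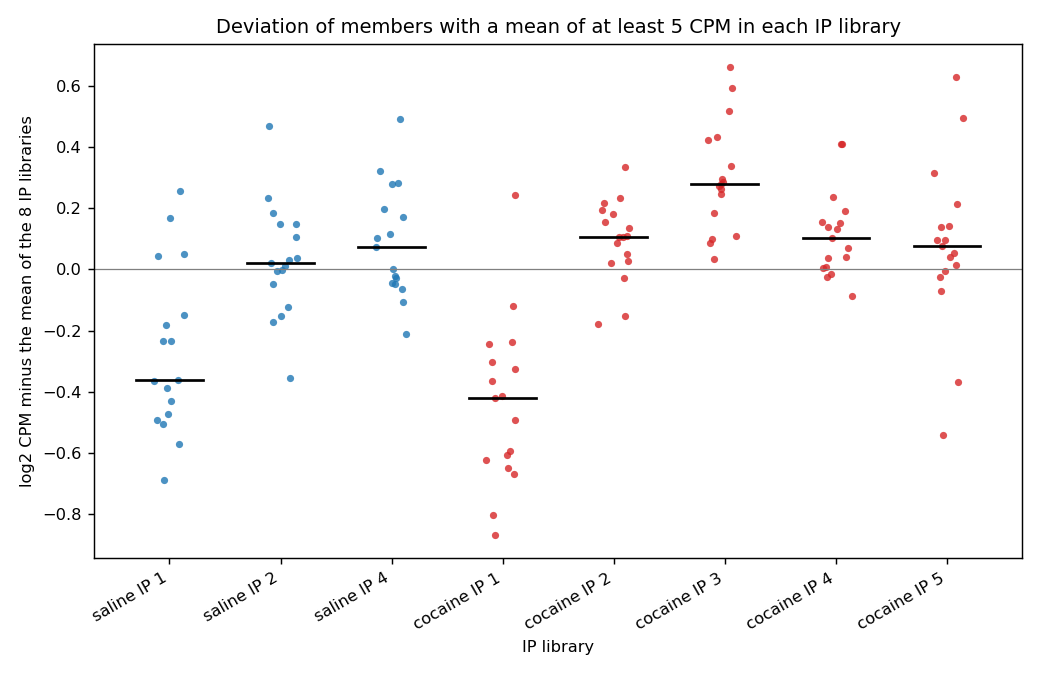
Deviation of the 17 members with a mean of at least 5 CPM from their own mean log2 CPM, in each of the 8 IP libraries. Points are members, bars are medians, and colours give saline and cocaine; the points of cocaine IP 1 sit lowest, those of saline IP 1 next, and those of cocaine IP 3 highest.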

How the data were processed

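The deposited tables give unnormalised read counts for each gene symbol, 1 table a library. Per the submitters' processing notes, the authors used STAR 2.0.0e and HTSeq on mm10. The version of HTSeq is not given in the sources used here. Special counters of HTSeq stayed out of library sizes. Reads in no feature came to 12.9% to 14.4% of gene, no-feature and ambiguous reads in the IP libraries, 25.5% for input and 27.4% for unbound RNA. Titles gave groups and numbers, and descriptions gave lanes.

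Cocaine and saline IP libraries were compared with edgeR 4.0.16 in R 4.3.3 (quasi-likelihood test, two-sided, TMM, filterByExpr, Benjamini-Hochberg over all genes); DESeq2 1.42.0 and limma 3.58.1 (voom) were alternatives. IP libraries were set against the single reference library as log2 ratios of CPM plus 1, where the mean over the libraries compared was at least 1 CPM, and called when every library passed 2-fold. Lengths and positions are from GENCODE M21 on GRCm38, the assembly of mm10, and promoters are from RefSeq. The annotation used by the authors is not given in the sources used here.

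The members and lists were chosen with earlier results of these data known. Full values are given for members called in either IP comparison, the 6 with the highest per-length level and the 4 with the smallest p for cocaine against saline. They are also given for Cdh5, which none of these rules picked. From each list, up to 3 genes called in both IP comparisons are named, plus others where the text says so.

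The numbers 1, 2 and 4 occur in both IP groups. Deviations of same-numbered libraries correlated at 0.706, 0.619 and 0.314 over 9618 genes with at least 5 CPM (0.486, 0.315 and 0.0855 over all 13800), and this alone is why they were taken as pairs: what a number marks is not in the labels. Tested on simulated counts, the cocaine comparison (13742 genes) recovered 13.4% of 1.5-fold changes, 88.1% of 2-fold changes and 100% of 3-fold changes, with 2 unchanged genes called. The simulation gave every gene the same biological coefficient of variation (0.199) and held no effect of lane or number. Only genes of at least 1 CPM were changed in it. Its shares are therefore not the power for the members in the real libraries.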

Additional observations from a re-analysis of the deposited data

Results flagged for a closer look

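In groups of 5, a value was picked out where its gap to the nearest other library took more of the group's range than Dixon's 95% limit allows. Of 26 members examined in the cocaine IP libraries, 3 were picked out. For independent, normally distributed values the limit picks about 1 in 20. The share picked out over all genes was not determined, so no excess can be read from this count. Values are CPM scaled over the 8 IP libraries. Cdh8 stood at 72.6 CPM in cocaine IP 1, below 118 to 136 in the other 4. Pcdh17 stood at 189.7 CPM in the same library, below 233 to 250.4. That library held the lowest value of 12 of the 17 members with a mean of at least 5 CPM, so Cdh8 and Pcdh17 are not independent picks. Pcdh8 stood at 2.20 CPM in cocaine IP 5, above 0.841 to 1.19.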

How the results depend on the processing

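For cocaine against saline, 0 genes and 0 members passed adjustment under every setting run. The median over members (0.11) was −0.13 with lane as a covariate, a fit that sets saline IP 4 alone against cocaine IP 1 and 2. Fitted changes of named members turned sign with lane as a covariate (Cdh11 −0.12, Cdh13 0.22, Cdh2 −0.014, Pcdh10 −0.36, Pcdh8 −0.58 and Pcdh9 −0.18), without the lane 4 libraries (Cdh11 −0.036, Cdh13 0.085, Pcdh10 −0.13, Pcdh17 −0.016 and Pcdh8 −0.069) and with voom (Pcdh8 −0.19). With the replicate block on numbers 1, 2 and 4, Pcdh10 was −0.017 and Pcdh8 −0.078; the unpaired fit of the same libraries gave −0.015 and −0.13. The block changed no call. It moved the genes at an unadjusted p of 0.05 from 141 to 903 of 13580 (smallest adjusted p 0.0599 by edgeR). Leaving out each library gave ranges across 0 for Cdh9 (−0.13 to 0.062), Pcdh10 (−0.037 to 0.23), Pcdh17 (−0.0032 to 0.14) and Pcdh8 (−0.19 to 0.49). Cdh19 ranged from −0.17 to 1.497 over 6 such fits; without cocaine IP 3 or cocaine IP 4 it did not pass the low-count filter.

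For saline IP to input, the genes called higher (211) were 70 with scaling by library size alone, 125 with 5 CPM added, 768 with the unbound RNA as reference, 512 by the mean ratio and 325 to 377 without 1 library. Genes called lower (1495) were 781 with 5 CPM added and 660 with a minimum of 5 CPM. Members called lower (5) were 2 with 5 CPM added (Cdh20 and Pcdh15), 1 with a minimum of 5 CPM (Pcdh15), 10 by the mean ratio and 5 to 9 without 1 library. Members called higher (0) were 1 with the unbound RNA as reference (Cdh13), 1 by the mean ratio (Cdh13) and 0 to 2 without 1 library. The member median (−0.22) was −0.44 with library size alone, 0.11 with a minimum of 5 CPM and 0.28 with the unbound RNA as reference, and ran from −0.29 to −0.12 without 1 library.

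For cocaine IP to unbound RNA, genes called higher (478) were 247 with library size alone, 294 with 5 CPM added, 137 with the input as reference and 1130 by the mean ratio. Genes called lower (1231) were 756 with 5 CPM added, 556 with a minimum of 5 CPM and 1891 with no filter. Members called lower (2) were 0 with a minimum of 5 CPM, since both fall under it, 4 with the input as reference and 5 by the mean ratio. Members called higher (0) were 2 by the mean ratio (Cdh8 and Cdh13) and 0 to 1 without 1 library. The member median (0.29) was 0.039 with library size alone, −0.018 with no filter and −0.0068 with the input as reference, and ran from 0.17 to 0.27 without 1 library. The set of members compared also changed: 24 in the main setting, 33 with no filter and 24 or 25 without 1 library. The cause of these shifts was not tested.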
